A study of Mus musculus with 4 samples.

Results

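Arginine is taken up by cells, rebuilt from citrulline and split by arginase, and the ornithine released feeds the polyamines. The 10 genes described here are the transporter Slc7a1, the enzymes Ass1, Asl, Arg1, Oat, Odc1, Srm, Sms and Sat1, and the regulator Azin1. They were picked by symbol from the 13102 genes of the deposited tables, and they were picked with their levels in these same libraries known. Their values are therefore a description, and no test is attached to them. All 10 were found, and all 10 passed the minimum mean of 1 CPM (counts per 1000000 counts of the scaled library) that left 12934 genes in the comparisons.

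The cells were mouse primary keratinocytes, the main cells of the epidermis, from neonatal C57BL/6 mice, grown for 48 h. There were 4 RNA-seq libraries, 1 per group. Untreated WT is wild-type cells with no cytokine. The other groups were given the inflammatory skin cytokine interleukin-17A (IL-17A) at 100 ng/mL for 8 h. They are wild-type cells (treated WT, marked as IL-17A WT in the plots), Il17rc knockout cells (Il17rc KO) and Il17rd knockout cells (Il17rd KO). Il17rc encodes a chain of the IL-17A receptor and Il17rd a related receptor. The comparisons address what IL-17A does in wild-type cells and what differs in cells of either knockout. The sources used here do not give how many mice went into a library or which part of each gene is deleted. Untreated knockout cells were not analysed here, so what a genotype does alone and what it does to the IL-17A response cannot be told apart.

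As background, arginase (Arg1) cuts arginine into urea and ornithine, and nitric oxide synthases use the same arginine. Ornithine decarboxylase (Odc1) turns ornithine into putrescine, the first and usually limiting step of polyamine synthesis, and spermidine synthase (Srm) and spermine synthase (Sms) extend putrescine to spermidine and spermine. Odc1 protein is bound by antizymes and sent for degradation, antizyme inhibitors such as Azin1 take the antizymes away, and Sat1 acetylates polyamines for export or breakdown. In skin, ornithine decarboxylase is known for its link to epidermal growth and tumour promotion, and arginase is known to be raised in psoriatic epidermis.

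Total counts lay between 19711866 and 19904695 per library, so depth differed little between groups. Levels below are in CPM of a library size scaled with TMM factors, which correct for a few abundant genes taking many reads. Il17rd had 5 counts in the Il17rd KO library against 252, 265 and 150 in untreated WT, treated WT and Il17rc KO. Il17rc had 439 counts in the Il17rc KO library against 2729, 1152 and 1718 in untreated WT, treated WT and Il17rd KO, so its RNA was lower there but not absent. The keratinocyte markers Krt5 and Krt14 were abundant in every library, with Krt5 at 15403 to 20368 CPM. Krt1 and Krt10, keratins of differentiating keratinocytes, stood far lower in treated WT: Krt1 was at 2537 CPM in untreated WT, 38.6 in treated WT, 618 in Il17rc KO and 1097 in Il17rd KO. Markers of other cells were present: the 5 melanocyte markers summed to 1524 to 2323 CPM, with the lowest sum in treated WT. The 5 measured of 7 fibroblast markers summed to 46.4, 5.21, 22.7 and 32.8 CPM, and the 2 measured of 3 endothelial markers to 10.4, 17.6, 7.88 and 10.5 CPM, in untreated WT, treated WT, Il17rc KO and Il17rd KO. In whole-culture RNA, fewer cells of a type and less RNA per cell cannot be told apart. The part of cell composition and differentiation state in the values below was not tested. The libraries also differed in sex-linked RNA. Xist, the RNA of the inactive X, had 2420, 4750, 2668 and 8513 counts and the Y-linked gene Ddx3y 654, 233, 749 and 2 in untreated WT, treated WT, Il17rc KO and Il17rd KO, and the Y-linked genes Eif2s3y, Kdm5d and Uty had 0 counts in Il17rd KO alone. In every comparison with Il17rd KO, for all 10 genes, the sex of the pups and the genotype therefore cannot be told apart. Treated WT also differed in these genes from untreated WT and Il17rc KO. Of the 5 sex-linked genes, 4 were called lower in treated WT against untreated WT, and 4 higher in Il17rc KO against treated WT. In these comparisons too, a different mix of male and female pups cannot be told apart from IL-17A or from the Il17rc genotype.

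With IL-17A, wild-type keratinocytes had more RNA for Ass1, an enzyme that remakes arginine from citrulline, for arginase (Arg1), for ornithine decarboxylase (Odc1) and for spermine synthase (Sms), and less for the arginine transporter Slc7a1. A gene is called here when its log2 ratio, computed with a prior count of 2, is at least 1 in size (2-fold) and the exact 95% binomial (Clopper-Pearson) interval of the count ratio excludes 1. The interval covers counting error only, reads are not independent molecules, and variation between dishes was not measured, so a call describes a pair of libraries. In treated WT against untreated WT, Arg1, Ass1, Odc1 and Sms were called higher, which is 4 of 10 members where 8.69% of all genes were called higher, and Slc7a1 was called lower, where 10.5% were. In Il17rc KO against treated WT, 0 members were called higher (6.02% of all genes) and 1, Odc1, lower (4.68%). In Il17rd KO against treated WT, 1 member, Slc7a1, was called higher (6.04%) and 2, Arg1 and Odc1, lower (3.6%). Between the knockouts, 0 members were called higher in Il17rd KO (2.51%) and 1, Arg1, lower (1.41%). The members were chosen with these calls known, so nothing is read from the shares. The median log2 ratio of the members was 0.70 in the first comparison, -0.18 in Il17rc KO against treated WT, -0.11 in Il17rd KO against treated WT and -0.19 between the knockouts, beside medians over all genes of 0.00, 0.04, 0.01 and -0.02. The comparisons share libraries, treated WT standing in the first 3, and are not independent. Asl, Azin1, Srm, Sat1 and Oat passed the call in none of these 4 comparisons.

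**Figure D1:**
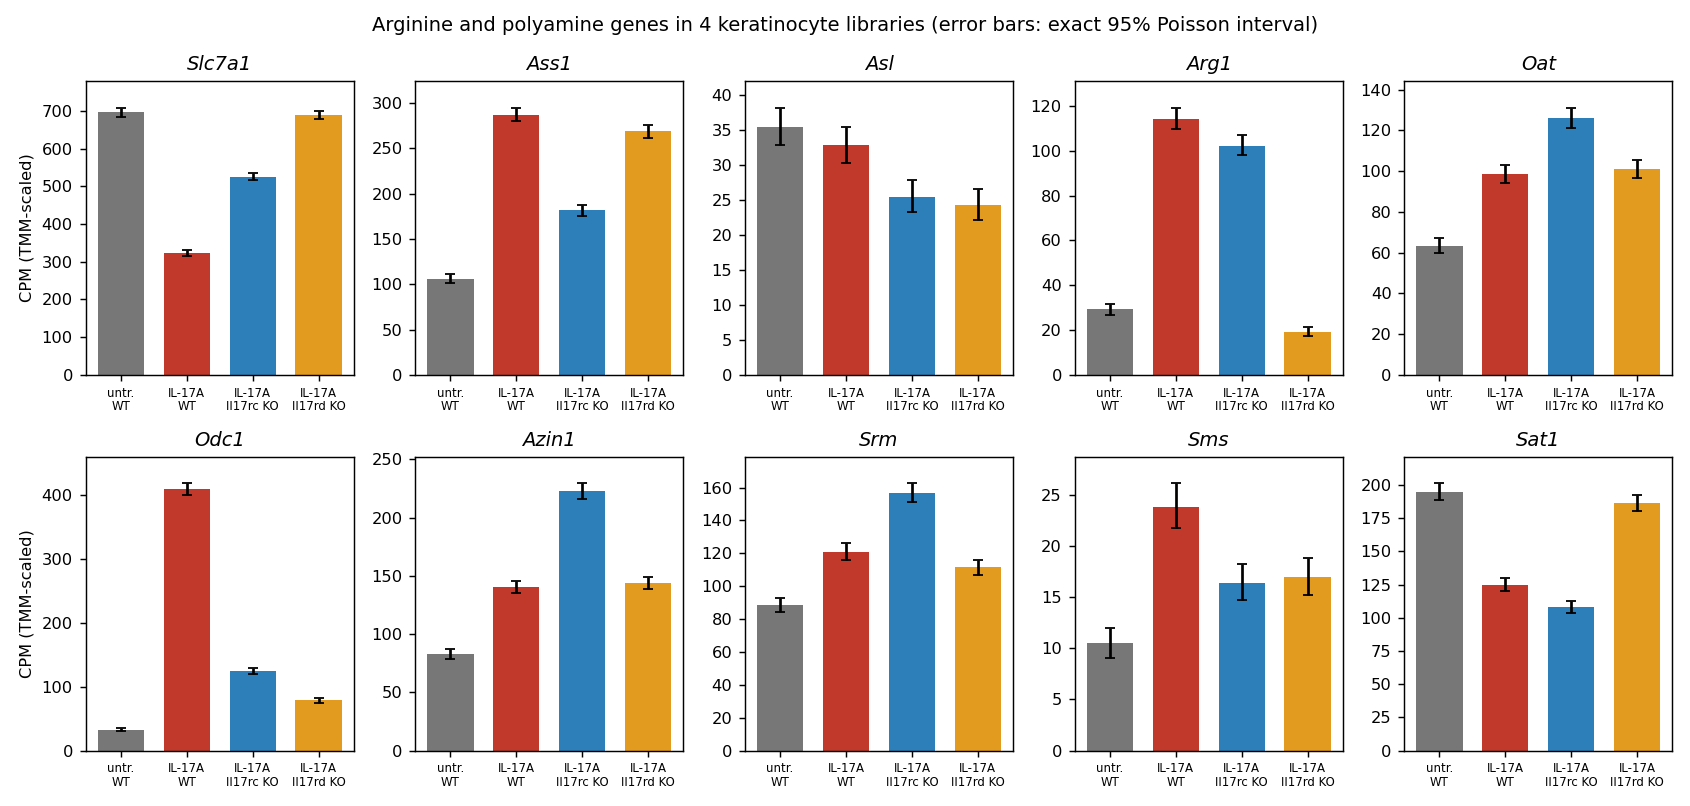
Level of each of the 10 genes in the 4 libraries, as bars in TMM-scaled CPM, 1 panel a gene with an axis of its own from 0, with exact 95% Poisson intervals that cover counting error only. Odc1 runs from 32.4 in untreated WT to 409 in treated WT, while Asl stays between 24.3 and 35.4.

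**Figure D2:**
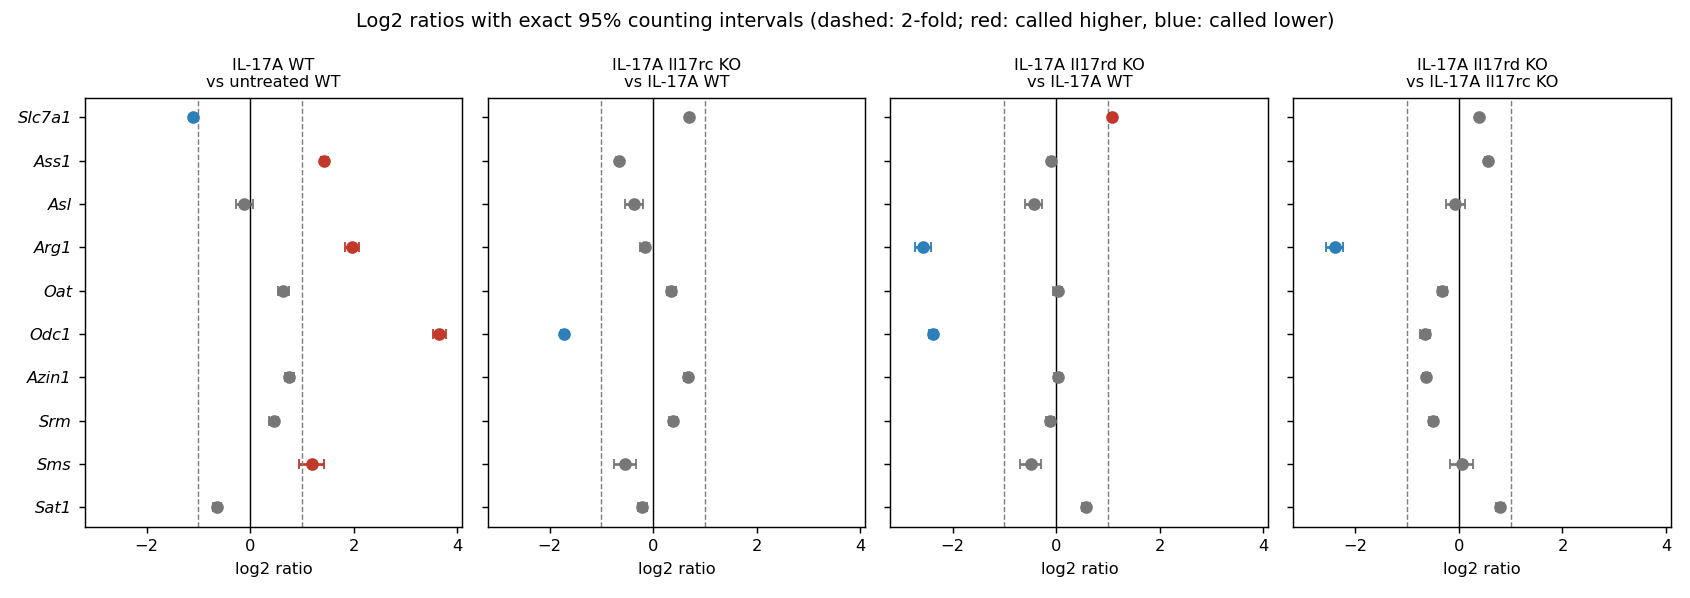
Log2 ratio of each gene in the 4 comparisons, 1 panel each, with exact 95% intervals from counting error only, dashed lines at 2-fold, and calls in red (higher) or blue (lower). The ratio of Odc1 lies past 2-fold in the first 3 comparisons, and that of Arg1 in treated WT against untreated WT and in both comparisons that set Il17rd KO against another IL-17A library.

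Set together, the 10 genes summed to 1339.8 CPM in untreated WT, 1676 in treated WT, 1589.5 in Il17rc KO and 1639.6 in Il17rd KO. Within that sum the shares moved more than the total. Odc1 made up 2.42% of the members' counts in untreated WT, 24.4% in treated WT, 7.80% in Il17rc KO and 4.80% in Il17rd KO. Slc7a1 made up 52.0%, 19.3%, 33.1% and 42.0% in the same order. On the deposited FPKM scale, which divides by gene length and lets genes be compared with each other, untreated WT was led by Sat1 (70.1), Slc7a1 (60.3) and Srm (55.1), with Odc1 in place 8 of 10. treated WT was led by Odc1 (119.8) and Ass1 (119), followed by Srm (75.6) and Arg1 (51.3). Sms was the lowest of the members on this scale in both libraries, at 1.74 and 3.96.

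Slc7a1, the main carrier of arginine, lysine and ornithine into many cells, was lower with IL-17A in wild-type cells. Against treated WT it was higher in both knockout libraries, with a call only in Il17rd KO. Its level was 696 CPM in untreated WT, 324 in treated WT, 526 in Il17rc KO and 689 in Il17rd KO. treated WT was the lowest library, and the untreated WT and Il17rd KO libraries could not be separated, at 1.01-fold with an interval of 0.987 to 1.03. treated WT was 2.15-fold lower than untreated WT (2.08 to 2.21), and Il17rd KO was 2.12-fold higher than treated WT (2.06 to 2.19). Il17rc KO lay between them, 1.62-fold above treated WT (1.57 to 1.67), which does not reach the call. Krt1 and Krt10, above, were also lowest in treated WT. The gene lies at chr5:148327410-148399904 on the minus strand of GRCm38. Its RefSeq promoter window, which runs from 250 bases before to 50 bases after a transcript start, is shown because 2 of the 4 motifs searched for matched in it. The capitals mark those matches. TTGGAGCAA at bases 48 to 56 fits the letters TTGCNNCAA only when read on the strand opposite to the one shown. The search listed these letters as C/EBP, a label that was not tested. TGACTCA at bases 128 to 134 fits the AP-1 motif TGANTCA. The window is chr5:148399855-148400154, minus strand, GRCm38.p6.
Slc7a1: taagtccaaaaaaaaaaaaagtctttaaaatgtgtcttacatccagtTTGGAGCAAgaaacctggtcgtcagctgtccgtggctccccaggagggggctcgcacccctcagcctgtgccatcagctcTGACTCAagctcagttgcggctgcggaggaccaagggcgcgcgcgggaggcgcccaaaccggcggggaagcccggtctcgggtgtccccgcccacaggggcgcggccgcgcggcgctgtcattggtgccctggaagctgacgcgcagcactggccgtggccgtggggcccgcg
Motifs were searched on both strands and did not overlap here. The letters TTGCNNCAA occur in 2.08% and the AP-1 letters in 7.81% of the 32851 promoter windows of the table. A second Slc7a1 window held no match. A match of letters is not evidence of binding.

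Ass1 joins citrulline and aspartate and Asl splits the product to give arginine, so the pair can refill arginine from citrulline. The members of the pair differed in their pattern. Ass1 was at 106 CPM in untreated WT, 287 in treated WT, 182 in Il17rc KO and 269 in Il17rd KO. All 3 libraries with IL-17A stood above untreated WT, and Il17rc KO was the lowest of the 3. treated WT was 2.70-fold higher than untreated WT (2.57 to 2.84). Against treated WT, Il17rc KO was 1.58-fold lower (1.52 to 1.65) and Il17rd KO 1.07-fold lower (1.03 to 1.11), and neither reached the call. Asl was at 35.4, 32.8, 25.5 and 24.3 CPM in untreated WT, treated WT, Il17rc KO and Il17rd KO, a spread of 1.46-fold, the smallest among the 10. Untreated WT and treated WT could not be separated for Asl, at 1.08-fold with an interval of 0.968 to 1.20, and neither could the knockouts. The FPKM ratio of Ass1 to Asl was 6.01, 17.5, 14.3 and 22.2 in untreated WT, treated WT, Il17rc KO and Il17rd KO. Ass1 lies at chr2:31470207-31520672 (plus strand) and Asl at chr5:130011258-130029247 (minus strand). Reads of Ass1 may be hard to assign between it and the processed pseudogene Gm5424, which is 99.5% identical over 73.1% of the Ass1 transcript and had 490, 1281, 722 and 1098 counts beside 2040, 5623, 3643 and 5524 for Ass1 in the same order, so the split between them is uncertain. The promoter window of Ass1, chr2:31470020-31470319 on the plus strand, is shown because it holds the E-box letters CACGTG, which Myc proteins among others can bind, at bases 215 to 220, 36 bases before the start.
Ass1: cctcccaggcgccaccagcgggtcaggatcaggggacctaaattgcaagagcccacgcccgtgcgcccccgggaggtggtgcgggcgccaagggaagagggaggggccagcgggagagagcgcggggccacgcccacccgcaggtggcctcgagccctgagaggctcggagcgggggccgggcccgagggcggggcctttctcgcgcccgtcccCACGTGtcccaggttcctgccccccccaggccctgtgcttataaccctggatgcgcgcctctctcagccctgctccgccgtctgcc
The E-box letters occur in 7.15% of all windows. Sms was the other member with a match, in 1 of its 2 windows, 196 bases before the start. The windows of Odc1, Sat1 and Oat held no match to any of the motifs, among which was also the amino acid response element TGATGNAA, found in 3.97% of all windows. Promoter windows were found for 6 of the 10 members. Those of Arg1, Asl, Azin1 and Srm were not matched.

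Arg1, arginase, was high with IL-17A in wild-type and Il17rc KO cells and low in Il17rd KO cells. It had 561 counts in untreated WT, 2239 in treated WT, 2053 in Il17rc KO and 397 in Il17rd KO, which is 29.3, 114, 102 and 19.3 CPM. Il17rd KO was below every other library, untreated WT included, and the other 2 IL-17A libraries lay close together. treated WT was 3.91-fold higher than untreated WT (3.56 to 4.30), and Il17rc KO was 3.50-fold higher (3.19 to 3.85). Il17rd KO was 5.92-fold lower than treated WT (5.32 to 6.60), 5.30-fold lower than Il17rc KO (4.75 to 5.91) and 1.51-fold lower than untreated WT (1.33 to 1.73). Il17rc KO was 1.12-fold lower than treated WT (1.05 to 1.19), short of the call. In FPKM, Arg1 moved from the 69.2 percentile of genes in untreated WT to the 92.05 in treated WT, and stood at the 58.2 in Il17rd KO. The FPKM ratio of Arg1 to Ass1 was 0.298, 0.431, 0.611 and 0.0779 in untreated WT, treated WT, Il17rc KO and Il17rd KO. Arg1 lies at chr10:24915221-24927484 on the minus strand and has no near-identical copy in the annotation.

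Macrophages are another known source of arginase, so their markers are given beside Arg1. Of 10 macrophage and other leukocyte markers, 6 were measured and none of these was at 0. Ptprc, Adgre1, Tyrobp and Fcer1g were not found by symbol among the deposited genes. The 6 summed to 88.3 CPM in untreated WT, 49.6 in treated WT, 34.5 in Il17rc KO and 58.3 in Il17rd KO. The markers did not share an order. Lyz2 had 796, 396, 67 and 348 counts in untreated WT, treated WT, Il17rc KO and Il17rd KO, and Csf1r, Mrc1 and Laptm5 were lowest in Il17rc KO too. Cd68, which made up 547 of the 691 summed counts in Il17rc KO, had 572, 340, 547 and 663 counts and was lowest in treated WT. Cd14 had 30, 84, 45 and 51 counts and was highest in treated WT, as Arg1 was. The part of leukocytes in the values of Arg1 was not tested.

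**Figure D3:**
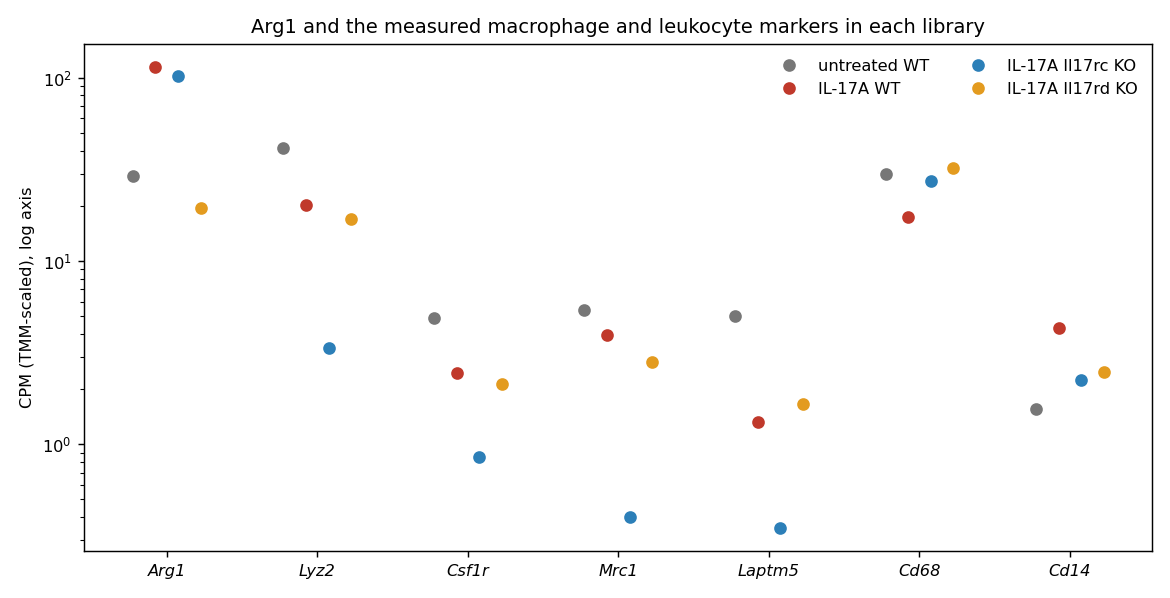
Arg1 beside each of the 6 measured markers of macrophages and other leukocytes, in TMM-scaled CPM on a log axis, 1 point a library. Arg1 is at 114 in treated WT and 102 in Il17rc KO, while Lyz2, Csf1r, Mrc1 and Laptm5 are lowest in Il17rc KO, Cd68 is lowest in treated WT (17.4) and Cd14 highest there (4.29).

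Oat, the mitochondrial aminotransferase that passes ornithine toward glutamate and proline, was at 63.4 CPM in untreated WT, 98.7 in treated WT, 126 in Il17rc KO and 101 in Il17rd KO. Untreated WT was lowest and Il17rc KO highest, and treated WT and Il17rd KO could not be separated, at 1.02-fold with an interval of 0.961 to 1.09. treated WT was 1.56-fold higher than untreated WT (1.45 to 1.67), short of the call. The gene, at chr7:132557478-132576398, lies inside the gene model of Fgfr2 on the same strand. Fgfr2 had 7588, 1767, 5234 and 5759 counts in untreated WT, treated WT, Il17rc KO and Il17rd KO, lowest where Oat was not. The sources used here do not say how the authors' counting treated reads in the overlap.

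Odc1 differed most of the 10. It had 621 counts in untreated WT, 7997 in treated WT, 2485 in Il17rc KO and 1616 in Il17rd KO, which is 32.4, 409, 124 and 78.7 CPM. The order of the 4 libraries was the same by count and by CPM, each step was larger than its counting error, and both knockouts lay between untreated WT and treated WT. treated WT was 12.6-fold higher than untreated WT (11.6 to 13.7). Il17rc KO was 3.30-fold lower than treated WT (3.15 to 3.45) and Il17rd KO 5.19-fold lower (4.92 to 5.48). The knockouts stayed above untreated WT, Il17rc KO at 3.83-fold (3.50 to 4.18) and Il17rd KO at 2.43-fold (2.21 to 2.67). Il17rd KO was 1.57-fold lower than Il17rc KO (1.48 to 1.68), short of the call. Odc1 lies at chr12:17544794-17551505 on the plus strand. The pseudogene Gm17709, 97.8% identical where it aligns, had 46, 382, 114 and 56 counts in untreated WT, treated WT, Il17rc KO and Il17rd KO, and another 3 near-identical pseudogenes were not measured. Odc1 also hosts the small nucleolar RNA gene Gm22748. The promoter window of Odc1, chr12:17544623-17544922 on the plus strand, is shown because Odc1 had the widest range of the members. It is 78% G and C with 42 CpG pairs, and none of the motifs matched, so no base is in capitals.
Odc1: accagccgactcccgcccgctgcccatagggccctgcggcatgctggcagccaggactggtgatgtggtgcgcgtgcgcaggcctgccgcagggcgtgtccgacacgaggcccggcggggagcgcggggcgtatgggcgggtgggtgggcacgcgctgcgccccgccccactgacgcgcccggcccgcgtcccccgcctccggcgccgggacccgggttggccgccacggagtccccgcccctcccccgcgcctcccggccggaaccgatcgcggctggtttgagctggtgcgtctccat
For comparison, the Ass1 window is 74% G and C with 27 CpG pairs and the Slc7a1 window 65% with 27. The absence of these letters in a window of 300 bases says nothing of a factor's binding elsewhere.

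Azin1, the antizyme inhibitor, did not have the order of Odc1. Its level was 82.8 CPM in untreated WT, 140.1 in treated WT, 223 in Il17rc KO and 143 in Il17rd KO. Il17rc KO was the highest library for Azin1, whereas treated WT was the highest for Odc1. treated WT was 1.69-fold higher than untreated WT (1.59 to 1.80), and Il17rc KO was 1.59-fold higher than treated WT (1.52 to 1.67), neither reaching the call. Il17rd KO and treated WT could not be separated, at 1.02-fold with an interval of 0.972 to 1.08. Azin1 lies at chr15:38487427-38519266 on the minus strand, with the antisense gene Gm49077 over its start. That gene was not measured, and the sources used here do not say whether counting used strand. Among the antizymes, Oaz1 was the most abundant and moved little, at 188 FPKM in untreated WT, 168 in treated WT, 169.8 in Il17rc KO and 166 in Il17rd KO. The FPKM ratio of Odc1 to Oaz1 was 0.0506, 0.711, 0.214 and 0.139 in that order. Azin1 to Oaz1 stood at 0.0707, 0.133, 0.2100 and 0.138. These are ratios of RNA levels, and antizyme is also controlled at translation, which these libraries do not measure.

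**Figure D4:**
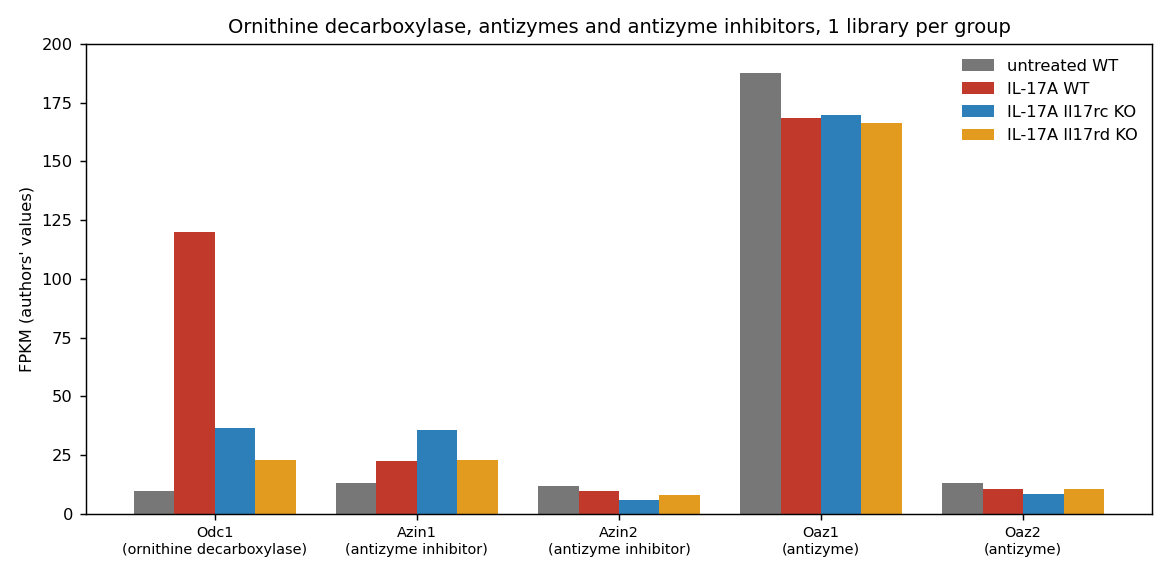
Odc1, the antizyme genes and the antizyme inhibitor genes in the 4 libraries, as bars in the FPKM the authors deposited, 1 library per bar. Odc1 moves between 9.49 and 119.8 FPKM while Oaz1 stays between 166 and 188.

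Srm and Sms, which follow Odc1, were higher with IL-17A by smaller amounts. Srm was at 88.3 CPM in untreated WT, 121 in treated WT, 157 in Il17rc KO and 111 in Il17rd KO. Srm was highest in Il17rc KO, as Azin1 and Oat were. treated WT was 1.37-fold higher than untreated WT for Srm (1.29 to 1.46) and Il17rc KO 1.30-fold higher than treated WT (1.23 to 1.37). Sms was at 10.5, 23.9, 16.4 and 17.0 CPM in untreated WT, treated WT, Il17rc KO and Il17rd KO. For Sms, treated WT was the highest library, 2.28-fold above untreated WT (1.93 to 2.70), and the knockouts could not be separated, at 1.04-fold with an interval of 0.888 to 1.21. Against treated WT, Sms was 1.45-fold lower in Il17rc KO (1.26 to 1.68) and 1.40-fold lower in Il17rd KO (1.22 to 1.62), short of the call. Sms had the fewest counts of the 10, 201, 467, 329 and 349, and its pseudogene Sms-ps, identical over the aligned stretch, had 24, 46, 39 and 29. The FPKM ratio of Srm to Sms was 31.7, 19.1, 36.0 and 24.7. Srm lies at chr4:148591503-148594993 (plus strand) and Sms at chrX:157443855-157492287 (minus strand).

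Sat1, which acetylates spermidine and spermine, was lower, not higher, with IL-17A in wild-type cells. Its level was 195 CPM in untreated WT, 125 in treated WT, 108 in Il17rc KO and 186 in Il17rd KO. The untreated WT and Il17rd KO libraries were high and could not be separated, at 1.05-fold with an interval of 0.999 to 1.09, and treated WT and Il17rc KO were low. treated WT was 1.56-fold lower than untreated WT (1.48 to 1.64), Il17rd KO was 1.49-fold higher than treated WT (1.42 to 1.57) and 1.72-fold higher than Il17rc KO (1.63 to 1.82), none of which reaches the call. The FPKM ratio of Sat1 to Odc1 was 7.38 in untreated WT, 0.375 in treated WT, 1.07 in Il17rc KO and 2.91 in Il17rd KO. Sat1 lies at chrX:155213132-155216449 on the minus strand, and its pseudogene Gm5552 had 80, 69, 75 and 55 counts. Sms and Sat1 are both X-linked. In Il17rd KO, Sms had a log2 ratio of 0.69 against untreated WT and -0.49 against treated WT, and Sat1 had -0.06 and 0.58. A separate list of 4 X-linked genes known to escape inactivation does not include them. Its genes had log2 ratios of 0.03 to 0.64 in Il17rd KO against untreated WT, with a median of 0.38. Against treated WT they were 0.07 to 0.61, with a median of 0.16, all of them positive. The part of X-linked dosage in Sms and Sat1 was not tested.

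Over the 10 genes, untreated WT was the highest library for 3 (Asl, Sat1 and Slc7a1) and the lowest for 6. treated WT was highest for 4 (Arg1, Ass1, Odc1 and Sms) and lowest for 1. Il17rc KO was highest for 3 (Azin1, Srm and Oat) and lowest for 1, and Il17rd KO was highest for 0 and lowest for 2 (Arg1 and Asl). Of the 30 steps between neighbouring libraries in these orders, 7 had an interval that included 1. Among them were the top steps of Asl, Sat1 and Slc7a1, so no highest place of untreated WT was separated from the next library. The lowest place of Il17rd KO for Asl was not separated from Il17rc KO either. By raw count, Il17rd KO stood above untreated WT for Sat1 (3828 against 3736) and Slc7a1 (14152 against 13351). Set against untreated WT, 3 members were called in Il17rc KO, Arg1, Odc1 and Azin1, all higher, where 13.8% of all genes were called in either direction. In Il17rd KO 2 members were called, Ass1 (2.53-fold, 2.40 to 2.66) and Odc1, both higher, where 8.3% of all genes were called. Azin1 was 2.69-fold above untreated WT in Il17rc KO (2.54 to 2.85).

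The rest of the pathway was covered by 61 further genes in 6 lists, of which 42 were measured. In treated WT against untreated WT, the list of the urea cycle, arginine use and nitric oxide had 1 of 4 measured genes called higher and 0 lower, and its median log2 ratio was -0.05. That gene was Ddah1, which breaks down methylated arginines that inhibit nitric oxide synthase, with 112 counts in untreated WT, 666 in treated WT, 189 in Il17rc KO and 156 in Il17rd KO. Ddah1 was 5.83-fold higher in treated WT (4.76 to 7.18), and it was called lower in both knockouts against treated WT, at 3.61-fold (3.07 to 4.27) and 4.48-fold (3.76 to 5.37). The second arginase Arg2, the nitric oxide synthases and the liver enzymes Cps1 and Otc were not found by symbol among the deposited genes. Of 7 measured transporters, 1 was called higher, the arginine carrier Slc7a3 (45, 134, 177 and 111 counts), and 1 lower, Slc7a6 (3265, 1379, 2461 and 2205), with a median of 0.03. Slc7a6, a partner of Slc3a2 in exchange of cationic amino acids, was lowest in treated WT, as Slc7a1 was. None of the 8 measured genes of ornithine, proline and glutamate conversion was called in the 4 main comparisons.

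In the list of other polyamine genes, 10 of 14 were measured and 9 passed the minimum level. With IL-17A in wild-type cells 1 was called higher and 1 lower, and the median log2 ratio was -0.16. The polyamine transporters Atp13a3 and Atp13a2 were these genes and went opposite ways: Atp13a3 had 3788 counts in untreated WT, 7868 in treated WT, 5120 in Il17rc KO and 5429 in Il17rd KO, and Atp13a2 had 1317, 622, 1000 and 883. Smox, spermine oxidase, which turns spermine back into spermidine, had 1000, 1612, 600 and 1279 counts in the same order. Il17rc KO was the lowest library for Smox, 2.75-fold below treated WT (2.51 to 3.03), a call, and Il17rd KO was 2.08-fold above Il17rc KO (1.89 to 2.30), also a call. Amd1, which makes the aminopropyl donor for Srm and Sms, was 1.33-fold higher in treated WT than in untreated WT (1.27 to 1.39), short of the call. Of the 9 genes of methionine salvage and S-adenosylmethionine supply, 1 was called higher and 0 lower with IL-17A in wild-type cells, with a median of 0.72. It was Mtap, which recycles the by-product of spermidine and spermine synthesis, at 1323, 2720, 1908 and 2002 counts. None of the 4 genes for hypusination of eIF5A, the modification made from spermidine, was called, with a median of 0.24.

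**Figure D5:**
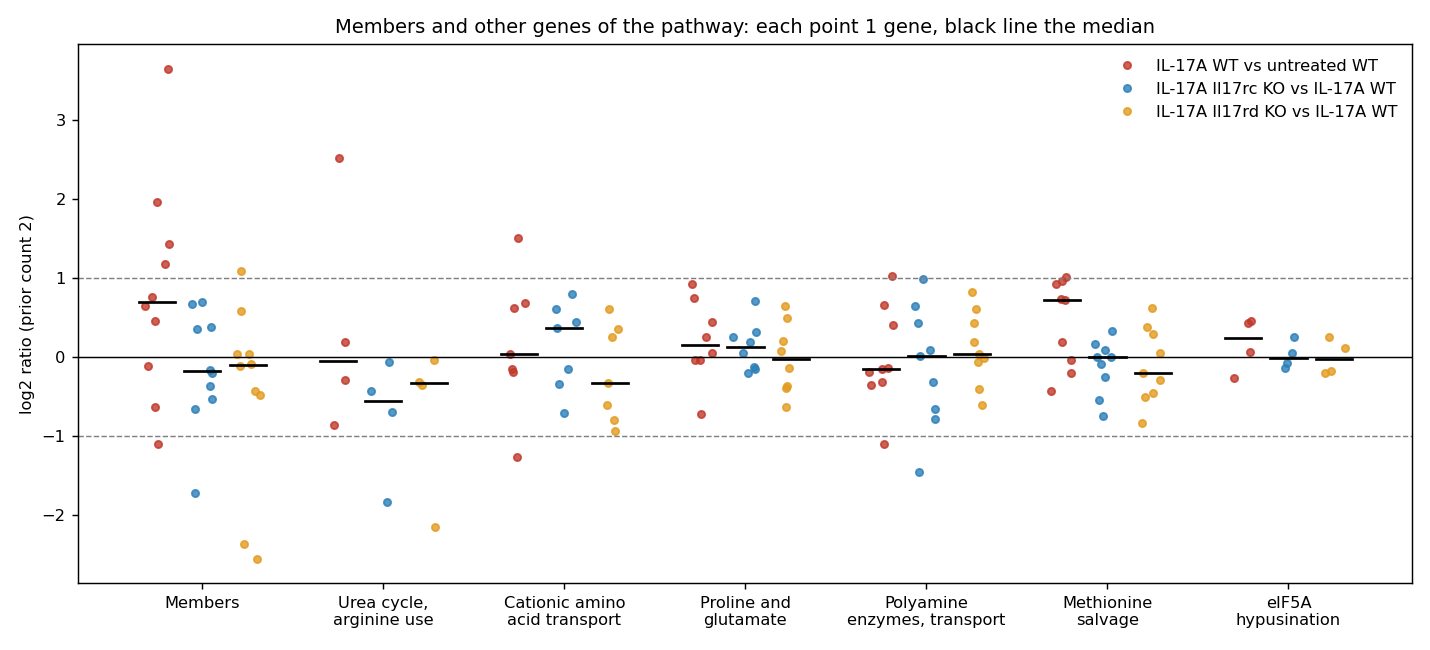
Log2 ratios of the 10 members and of the tested genes of the other pathway lists, 1 point a gene, in the 3 comparisons given by colour, with a black bar at each median and dashed lines at 2-fold. The median of the members in treated WT against untreated WT is 0.70, and that of the methionine salvage list 0.72.

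Odc1, Srm and other polyamine genes are known targets of Myc. Myc itself was not higher with IL-17A, with 4940 counts in untreated WT, 3691 in treated WT, 4473 in Il17rc KO and 3791 in Il17rd KO. treated WT was 1.37-fold lower than untreated WT (1.31 to 1.43), short of the call. Of 10 genes of the Myc network, 1 was called higher in that comparison, Mycn, at 14, 38, 25 and 10 counts, and 4 were lower, the list's median log2 ratio being -0.57. Those lower were Mycl (229, 58, 78 and 165 counts), Mxd4, Mxi1 and Mnt, the last 3 of them known as antagonists of Myc. Mxd4 was 2.74-fold lower (2.56 to 2.95), Mnt 2.10-fold (1.94 to 2.28) and Mxi1 2.06-fold (1.90 to 2.23). Of 10 proliferation genes, 10 were called higher in treated WT against untreated WT, with a median of 1.66. Against untreated WT, 10 were called higher in Il17rc KO and 9 in Il17rd KO, with 1 not called. Their sum was 426 CPM in untreated WT, 1151 in treated WT, 2077 in Il17rc KO and 1226 in Il17rd KO. It was highest in Il17rc KO, where Azin1, Srm and Oat were highest and Odc1 was at 124 CPM. The part of Myc, of its network and of proliferation in the members' values was not tested.

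The genes nearest in pattern to a member over the 4 libraries were found by Euclidean distance between log2 CPM values centred on their mean. The pool was 8897 genes that averaged 10 CPM or more. Symbols of the kind given to predicted genes, pseudogenes, clones and mitochondrial genes, and those turned into dates, were left out. Gm5424, the near-identical copy of Ass1, was therefore not compared. With only 4 libraries many genes lie near each other by this measure. Nearest to Odc1 were Plaur (distance 0.45), Aldh1a3 (0.52), Prkg2 (0.56), Epcam (0.62) and Tm4sf1 (0.64). Plaur, the urokinase receptor, had 115, 1834, 443 and 237 counts in untreated WT, treated WT, Il17rc KO and Il17rd KO. Arg1 had no neighbour as close. F2rl1, a protease-activated receptor of keratinocytes, was at 0.75 with 1699, 4362, 4171 and 1431 counts, and Akap12, Fosl1, Atp6v1c2 and Adcy7 followed at 1.04 to 1.09. Ass1 had the closest neighbours of these 3 members, Mgst3 (0.13), H2afz (0.17), Rbmx (0.20), Efemp1 (0.34) and Sh3bgrl (0.35). Distances were not scaled for range, which was 2.70-fold for Ass1, 5.92-fold for Arg1 and 12.6-fold for Odc1. Closeness is therefore not comparable between these 3 members. H2afz, a histone variant with near-identical copies elsewhere, had 1678, 4487, 2595 and 4540 counts.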

How the data were processed

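The deposited tables give, for each gene symbol, a count and an FPKM value per library. The submitters' processing notes name Trim Galore 0.4.4, HISAT2, featureCounts (Subread), edgeR and build mm10. The sources used here do not give their order, settings, annotation or strand. The counts, as the authors deposited them, are unnormalized whole numbers. The FPKM values deposited by the authors imply library size ratios of 1.02, 1.05 and 1.07 to untreated WT, equal to those of the TMM-scaled sizes here. They served for comparing genes and as an alternative.

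TMM factors (edgeR 4.0.16) came to 0.963 in untreated WT, 0.984 in treated WT, 1.01 in Il17rc KO and 1.04 in Il17rd KO. Log2 ratios used a prior count of 2. Folds are ratios of CPM with no prior count, with exact conditional binomial (Clopper-Pearson) intervals at 95% (scipy 1.17.1). With 1 library per group no p-value was computed. Ratios were computed over the 12934 genes that averaged 1 CPM or more. The members and lists were chosen with earlier results of these data known. Named are all members, Il17rc and Il17rd, up to 4 called genes per list and comparison, and the 5 nearest genes to Arg1, Odc1 and Ass1. The cell markers, Oaz1, Amd1, Myc and Fgfr2 were named knowing their values. The calling step was tested on simulated Poisson counts with changes of known size. They hold counting error only, so they say nothing of calls that arise from variation between dishes. Alternatives were other scaling factors, no filter, other fold limits, other prior counts, the FPKM values and adding the counts of near-identical copies.

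GENCODE M21 (GRCm38) held 12853 of the 13102 symbols, and 17 symbols turned into dates were not named. Copies were found with BLAST 2.17.0 at 95% identity over at least 50% of either transcript. Promoter windows come from RefSeq (GRCm38.p6).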

Additional observations from a re-analysis of the deposited data

Results flagged for a closer look

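In 3 results the knockouts lay on opposite sides of their common reference. None of these differences was tested, since each group has 1 library, and the knockouts are compared through the same reference library. Sat1 was lower in Il17rc KO than in treated WT (log2 ratio -0.21) and higher in Il17rd KO (0.58), a difference of -0.78. Srm was higher in Il17rc KO (0.37) and lower in Il17rd KO (-0.12) than in treated WT, a difference of 0.49. The Il17rd KO value of Srm was small, 1.09-fold with an interval of 1.03 to 1.15. With library totals without a factor its log2 ratio was -0.036, so its distance from treated WT depends on the scaling. Arg1 was higher than untreated WT in Il17rc KO (1.80) and lower in Il17rd KO (-0.60), a difference of 2.40. Of these log2 ratios only that of Arg1 in Il17rc KO passes the 2-fold limit.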

How the results depend on the processing

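Each of the 10 members has a ratio in 6 comparisons, 60 values in all, of which 15 are calls. All 15 calls were kept with RLE factors, upper quartile factors, library totals without a factor, no filter, the authors' FPKM ratio, a prior count of 0.5 and, chosen after seeing the data, no prior count and the counts of near-identical copies added. No ratio of a call changed sign. Leaving out the filter could not change a member's call, since all 10 members passed it. The FPKM ratio repeats the ratio with no prior count, because its library sizes equal the TMM-scaled ones, so it is not a separate check. Library totals without a factor moved the median of all genes by up to 0.113 on the log2 scale and made Oat in Il17rc KO against untreated WT a call at 1.06. For counts of calls, the prior count of 0.5 was also chosen after seeing the data. The fold limit mattered most. At 1.5-fold, members called went from 5 to 8 in treated WT against untreated WT, from 1 to 4 in Il17rc KO against treated WT, from 1 to 4 between the knockouts, and from 3 to 8 and 2 to 6 in Il17rc KO and Il17rd KO against untreated WT. At 3-fold they went from 5 to 2 in treated WT and from 2 to 0 in Il17rd KO, both against untreated WT, and 8 of the 15 calls were kept. Calls over all genes, for treated WT against untreated WT, Il17rc KO and Il17rd KO against treated WT, Il17rd KO against Il17rc KO, and Il17rc KO and Il17rd KO against untreated WT, were 2478, 1383, 1247, 508, 1788 and 1074 at 2-fold, 4726, 2816, 2617, 1549, 4060 and 2759 at 1.5-fold, and 1082, 581, 558, 173, 680 and 359 at 3-fold. No replicate could be left out, with 1 library per group. No paired analysis was possible because each group holds a single library. Depth limits Sms most, with 201 counts in untreated WT, while variation between dishes is unknown for every gene.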

Other observations

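Genes induced by ATF4 in the amino acid response, 13 listed and 13 measured, were not called with IL-17A in wild-type cells, where 0 were higher and 0 lower and the median log2 ratio was 0.12. In Il17rc KO against treated WT 3 were called higher, with a median of 0.47. They were the transcription factor gene Atf3 (199, 224, 660 and 377 counts in untreated WT, treated WT, Il17rc KO and Il17rd KO), Chac1, which degrades glutathione (659, 388, 960 and 654), and Trib3 (429, 475, 982 and 723). In Il17rd KO against treated WT 0 were called, with a median of 0.41. The cystine carrier Slc7a11 was called higher in Il17rd KO than in Il17rc KO, at 389, 549, 436 and 981 counts.

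Of 10 ribosome biogenesis genes, 1 was called higher in treated WT against untreated WT, Nop58 (1618, 3605, 4682 and 3411 counts), with a median of 0.68. In Il17rc KO against untreated WT 4 were called higher, with a median of 0.95. Their summed level was 1583 CPM in untreated WT, 2820 in treated WT, 3291 in Il17rc KO and 2466 in Il17rd KO.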
